A study of Homo with 4 samples.

Results

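The 46 genes described here drive or mark passage through the cell division cycle. They were given as a list of symbols, of which 24 act at the G1/S boundary or in DNA replication and 22 act in G2, mitosis or chromosome segregation. All 46 were found among the 20263 genes of the deposited count table, by matching gene positions on GRCh38 to RefSeq symbols, and the estimated counts of each gene's transcripts were summed. RNA-seq was performed on H1299, a human non-small cell lung cancer line that lacks p53, after infection with a lentivirus carrying a control hairpin (shCtrl, genotype WT) or a short hairpin against IGF2BP3 (shIGF2BP3, genotype IGF2BP3 knockdown). Each group had 2 libraries, and the comparison asked which transcripts differed once IGF2BP3, an RNA-binding protein known to stabilise target mRNAs, was reduced. Both groups are infected cultures of 1 cell line, labelled biological replicates 1 and 2. It is not stated whether both shIGF2BP3 libraries carry the same hairpin, so their spread may include a difference between hairpins, and p-values measure only the spread between these 4 libraries.

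As background, the cell cycle runs on waves of gene expression. In G1, cyclin and CDK complexes phosphorylate RB1, which releases E2F factors to switch on genes for origin licensing and nucleotide synthesis, and the CDK inhibitors oppose this step. Later, cyclin A, cyclin B and CDK1 drive entry into mitosis, where kinesins, checkpoint kinases and the anaphase promoting complex separate the chromosomes. Lung cancer lines kept in culture cycle continuously, so both sets of genes are normally transcribed in them.

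Total counts ran from 29709686 to 34817513 per library, and mitochondrially encoded genes held from 9.11% to 17.02% of them, with overlapping groups. The targeted gene IGF2BP3 was read at 41.1 and 32.9 CPM, the count per 1000000 counts of the TMM-scaled library, in shCtrl and at 26.4 and 24.8 CPM in shIGF2BP3. Both shIGF2BP3 libraries were lower, at 69.1% of the control level (log2 fold change -0.53, standard error 0.17, adjusted p = 0.472 by edgeR), and the fold of 1.45 fell short of the 1.5 used below to call a gene. IGF2BP3 was called lower with library totals (-0.62), with limma on FPKM values (-0.68 to -0.60) and without shCtrl replicate 2 (-0.68), and was at -0.36 without shCtrl replicate 1. Of the epithelial markers, KRT8 and KRT18 were abundant, at 330 to 447 and 613 to 713 FPKM, a unit corrected for transcript length and depth, while EPCAM, CDH1 and KRT19 stayed at or under 0.172 FPKM in every library. Summed fibroblast markers reached at most 0.34 FPKM and summed endothelial markers at most 0.0411 FPKM, and the leukocyte genes PTPRC and CD3E were listed at 0. Another leukocyte marker, CD68, stood at 20.9 to 23.7 FPKM, with overlapping ranges in both groups.

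All 46 cell cycle genes were expressed in H1299 cells, and none was lost to the filter on low counts. The lowest count of any of them in any library was 233, for CCNE2, and the highest was 34771, for MCM7. On the length-corrected scale, mean shCtrl levels ran from 6.07 FPKM for E2F2 to 289 FPKM for MCM7 among the G1/S genes. Among the G2/M genes they ran from 6.59 FPKM for the kinetochore motor CENPE to 316 FPKM for CDC20, the activator of the anaphase promoting complex. The median level was 46.7 FPKM for the G1/S genes and 43.5 FPKM for the G2/M genes.

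After IGF2BP3 knockdown most of these genes moved little. A gene was called when it passed both thresholds of the study, a fold change of 1.5 or more and a p, before adjustment, of 0.05 or less by edgeR's quasi-likelihood test. With 2 libraries against 2, an exact permutation test of a single gene cannot go below 0.333, so adjusted p-values of the fit across all genes are given. Only TYMS was called, as lower, so that 1 of 24 G1/S genes and 0 of 22 G2/M genes were called lower where 2.78% of all 13379 genes tested were. None of the 46 was called higher, against 2.54% of all genes. After Benjamini-Hochberg adjustment over all genes, edgeR gave adjusted p-values of 0.472 to 0.992 for the 46 genes, and 0.0% of all genes passed 0.05. At an unadjusted p of at most 0.05 and any fold, edgeR picked out 6 of the 46 genes (TYMS and MCM7 lower, and E2F3, CDKN2A, TTK and CDK1 higher), against 10.5% of all genes. With DESeq2, 160 genes passed an adjusted p of 0.05 and TYMS was the 1 cell cycle gene among them.

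The 2 phases leaned to different sides of 0 by small amounts. Of the 24 G1/S genes, 16 had a log2 fold change below 0 and 8 above, with a median of -0.07. Of the 22 G2/M genes, 9 were below 0 and 13 above, with a median of 0.05 that turned to -0.03 with library totals and to -0.01 with FPKM values. The median of all genes tested was 0.00 under TMM scaling and -0.08 with library totals. In 9 of the 24 G1/S genes (37.5%) and 4 of the 22 G2/M genes (18.2%) both shIGF2BP3 libraries lay below both shCtrl libraries, where 23.5% of all genes did. In 4 G1/S genes (16.7%) and 6 G2/M genes (27.3%) both lay above, where 23.3% of all genes did. The difference between the phases was not tested, and these shares are descriptions of genes that share the same 4 libraries. In bulk RNA, fewer cells in a phase and less RNA per cell cannot be told apart.

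**Figure D1:**
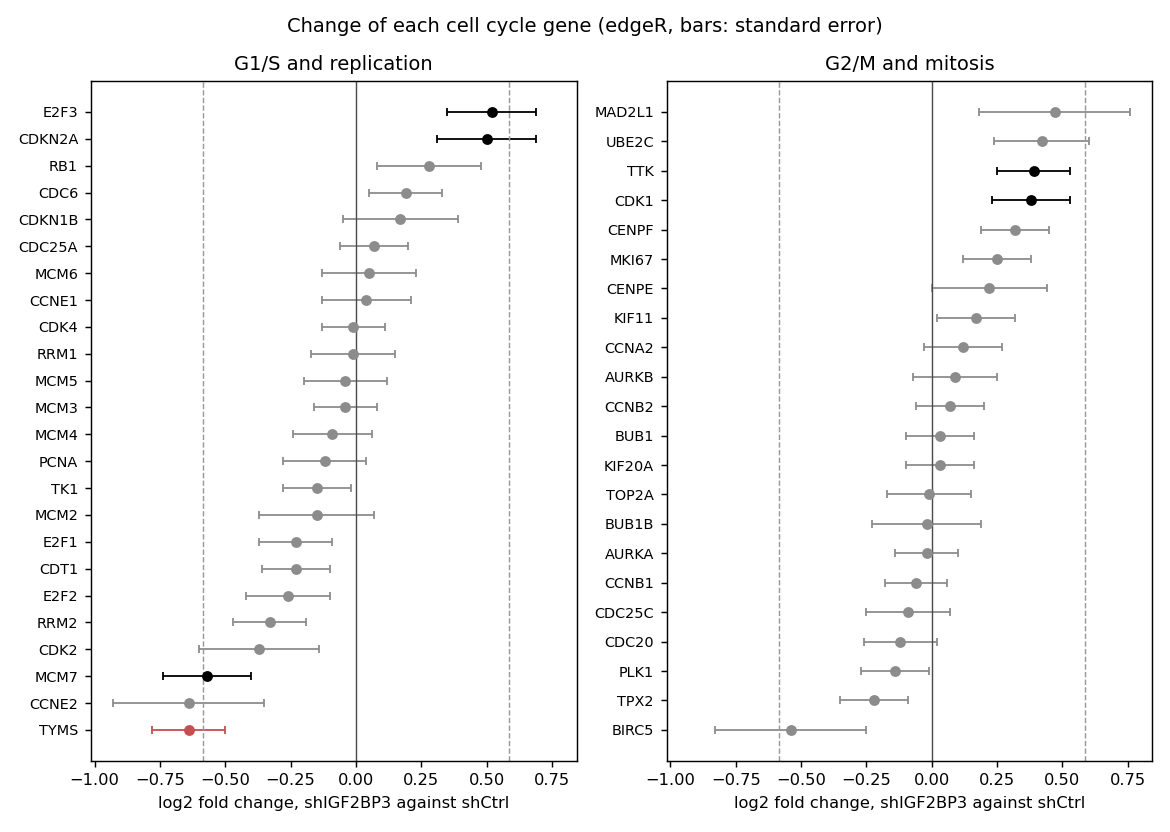
Log2 fold change of each of the 46 genes in shIGF2BP3 against shCtrl (x axis) by edgeR, with the standard error as a bar, in 2 panels by phase. The red point is TYMS, the only gene past a fold of 1.5 (dashed lines) with p of at most 0.05; black points have p of at most 0.05 with a smaller fold, and all 46 lie between -0.64 and 0.52.

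**Figure D2:**
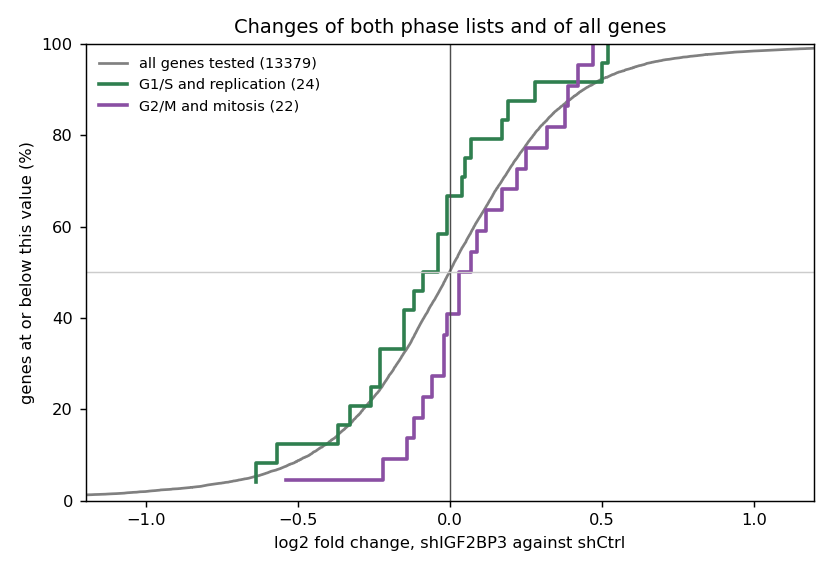
Cumulative share of genes (y axis, percent) at or below each log2 fold change (x axis) for the 24 G1/S genes, the 22 G2/M genes and all 13379 genes tested. The G1/S curve lies mostly to the left of the all-gene curve around 0 and the G2/M curve to its right, with medians of -0.07 and 0.05.

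The called gene belongs to the group that supplies deoxynucleotides and the replication clamp, and differences between groups are given below as log2 fold changes of shIGF2BP3 over shCtrl. TYMS, thymidylate synthase, which makes dTMP for DNA synthesis (ENSG00000176890; chromosome 18 from 657604 to 673578), was read at 264 and 266 CPM in shCtrl and at 182 and 157 CPM in shIGF2BP3. Both shIGF2BP3 libraries were well below both shCtrl libraries, which differed by only 0.01 on the log2 scale. TYMS fell by 0.64 on the log2 scale (standard error 0.14), to 64.0% of control, a 1.56-fold decrease. Its adjusted p was 0.472 by edgeR and between 0.00737 (DESeq2) and 0.599 across the alternatives. Without shIGF2BP3 replicate 2 its log2 fold change was -0.54 and the fold no longer reached 1.5. The 3' end of TYMS shares 3255 bases with ENOSF1 on the opposite strand, and ENOSF1 was read at 67.7 and 63.0 CPM in shCtrl and 67.3 and 75.4 CPM in shIGF2BP3.

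RRM2, the small subunit of ribonucleotide reductase, which makes deoxynucleotides from ribonucleotides, was read at 321 and 277 CPM in shCtrl and 247 and 228 CPM in shIGF2BP3. Its groups did not overlap, and its log2 fold change was -0.33 (standard error 0.14, adjusted p = 0.48 by edgeR). The large subunit RRM1, at 94.3 and 75.4 CPM against 87.6 and 80.8 CPM, overlapped between groups, with a log2 fold change of -0.01. Thymidine kinase TK1, which salvages thymidine, lay at 173 and 188 CPM against 165 and 160 CPM, a log2 fold change of -0.15 with no overlap. PCNA, the sliding clamp of the replication fork, was at 262 and 285 CPM in shCtrl and 279 and 225 CPM in shIGF2BP3, and its groups overlapped (log2 fold change -0.12, standard error 0.16, adjusted p = 0.779). All 5 genes of this group were below 0, with a median of -0.15, and with 1 library left out in turn PCNA reached 0.03.

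MCM7 showed the next smallest p among the G1/S genes. It is a subunit of the MCM2-7 helicase that is loaded on origins in G1 (ENSG00000166508; chromosome 7 from 100092729 to 100101940). MCM7 was read at 925 and 944 CPM in shCtrl and at 709 and 552 CPM in shIGF2BP3. The groups were far apart, while the shIGF2BP3 libraries themselves differed by 0.36 on the log2 scale. The log2 fold change was -0.57 (standard error 0.17, adjusted p = 0.472), a 1.48-fold lower level just short of the fold asked for, with p under 0.05 before adjustment. With library totals the log2 fold change was -0.64 and MCM7 was called lower. With 1 library left out, it ran from -0.75 without shIGF2BP3 replicate 1 to -0.40 without shIGF2BP3 replicate 2.

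The other helicase subunits were nearer 0. MCM2 was read at 272 and 189 CPM in shCtrl and 229 and 186 CPM in shIGF2BP3, with a log2 fold change of -0.15 (standard error 0.22, adjusted p = 0.8 by edgeR). Its shCtrl libraries were further apart than its groups, and without shCtrl replicate 1 its log2 fold change turned to 0.14. MCM3, MCM4, MCM5 and MCM6 had log2 fold changes of -0.04, -0.09, -0.04 and 0.05, and of these only MCM3 had no overlap between groups. The loading factors CDC6 and CDT1, which bring the helicase to origins, stood at 0.19 and -0.23, both without overlap. In all, 6 of the 8 licensing and helicase genes were below 0, with a median of -0.07.

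**Figure D3:**
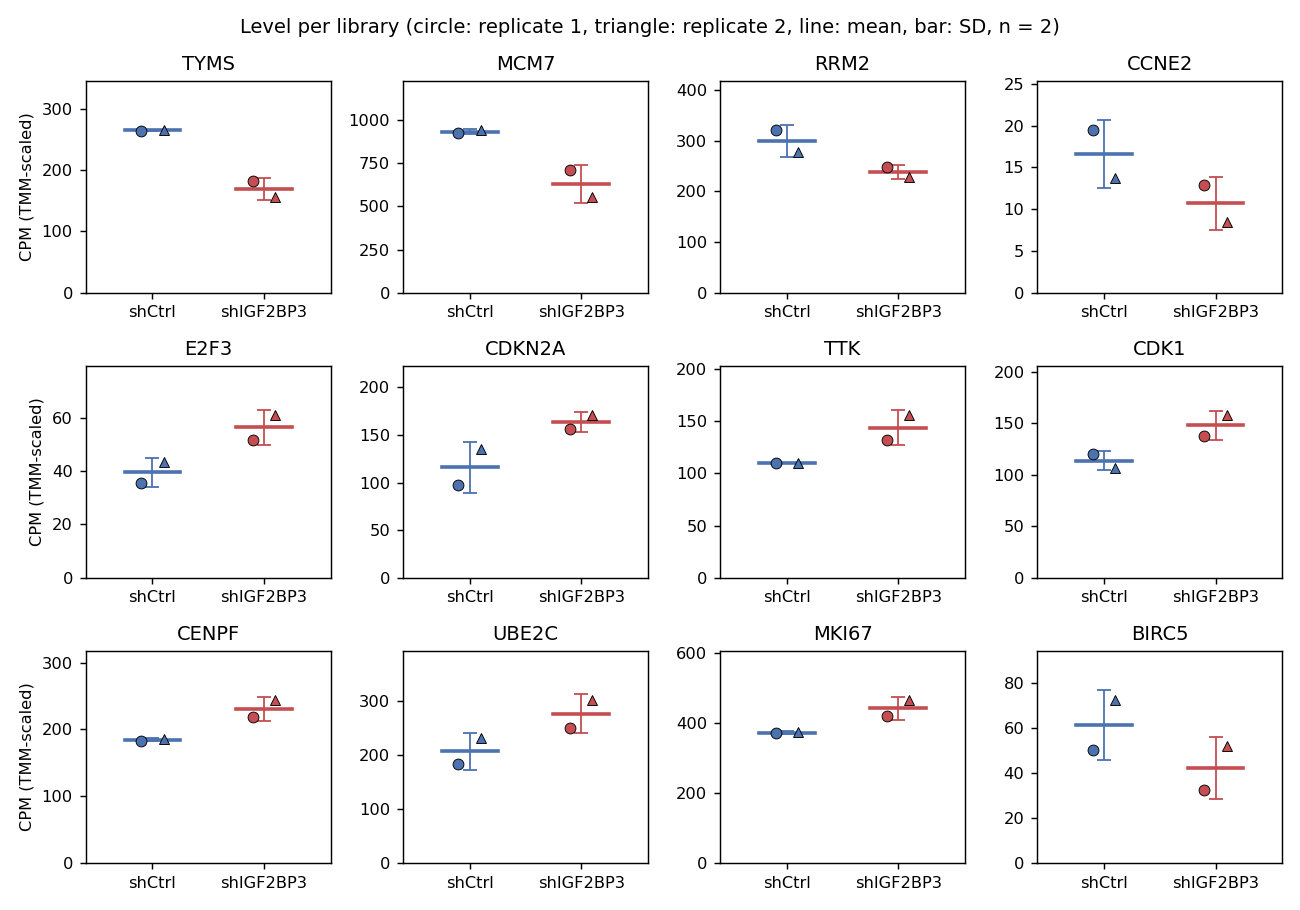
CPM (y axis, from 0) in each shCtrl (blue) and shIGF2BP3 (red) library for 12 cell cycle genes, with circles for replicate 1, triangles for replicate 2, a line for the mean and a bar for the SD (n = 2). TYMS, MCM7 and RRM2 are lower in both shIGF2BP3 libraries and E2F3, CDKN2A, TTK and CDK1 are higher, while BIRC5 overlaps between groups.

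Among the E2F and RB genes the directions were mixed. E2F3, an activating E2F (ENSG00000112242; chromosome 6 from 20401906 to 20493715), was read at 35.7 and 43.4 CPM in shCtrl and at 51.9 and 61.1 CPM in shIGF2BP3. Both shIGF2BP3 libraries were higher, with a log2 fold change of 0.52 (standard error 0.17, adjusted p = 0.472 by edgeR) and a fold of 1.43. Its p was under 0.05 before adjustment only. E2F1, the best known activating E2F, was read at 98.9 and 112 CPM against 94.1 and 86.2 CPM, a log2 fold change of -0.23 (standard error 0.14, adjusted p = 0.559). E2F2 differed by -0.26, with both shIGF2BP3 libraries below both controls. RB1, the retinoblastoma repressor that holds E2F factors in check, was at 50.1 and 37.0 CPM in shCtrl and 48.9 and 56.8 CPM in shIGF2BP3, so its groups overlapped (log2 fold change 0.28, standard error 0.20, adjusted p = 0.596). The log2 fold change of RB1 was 0.52 without shCtrl replicate 1 and 0.08 without shCtrl replicate 2.

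Both genes listed as CDK inhibitors were above 0, but the CDKN2A total covers transcripts of 2 proteins and is not a reading of p16INK4a alone. CDKN2A, the locus of p16INK4a and p14ARF (ENSG00000147889; chromosome 9 from 21967753 to 21995301), was read at 97.3 and 135 CPM in shCtrl and at 156 and 171 CPM in shIGF2BP3. Its groups did not overlap, and its log2 fold change was 0.50 (standard error 0.19, adjusted p = 0.472 by edgeR), a fold of 1.41. The shCtrl libraries differed by 0.47, nearly as much as the groups, and a single library moved the value. Without shCtrl replicate 2 the log2 fold change was 0.75 and CDKN2A was called higher, and without shCtrl replicate 1 it was 0.29. CDKN1B, which encodes p27, overlapped between groups at 56.8 and 37.3 CPM against 52.4 and 53.9 CPM (log2 fold change 0.17, standard error 0.22, adjusted p = 0.769), and was -0.10 without shCtrl replicate 2.

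The G1/S cyclins and kinases were mostly near 0. Cyclin E1 (CCNE1), which activates CDK2 for S phase entry, was at 19.9 and 17.8 CPM in shCtrl and 18.3 and 20.4 CPM in shIGF2BP3, with full overlap (log2 fold change 0.04, standard error 0.17, adjusted p = 0.945). It was -0.05 with library totals. The kinase CDK4, which starts RB1 phosphorylation with D cyclins, was at 165 and 161 CPM against 164 and 160 CPM, a log2 fold change of -0.01 (standard error 0.12, adjusted p = 0.987). CDK2 was at 68.4 and 48.8 CPM in shCtrl and 51.8 and 38.8 CPM in shIGF2BP3 (log2 fold change -0.37, standard error 0.23, adjusted p = 0.564), and 1 shIGF2BP3 library lay above a shCtrl library. The log2 fold change of CDK2 ran from -0.59 without shCtrl replicate 2 to -0.10 without shCtrl replicate 1, and was -0.18 without shIGF2BP3 replicate 2. CDC25A, the phosphatase that activates CDK2, differed by 0.07.

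The paralog cyclin E2 (CCNE2), singled out after its values were seen, had as large a difference as TYMS but wider scatter. It was read at 19.5 and 13.7 CPM in shCtrl and at 12.9 and 8.46 CPM in shIGF2BP3, the lowest counts of any gene listed. Its log2 fold change was -0.64 with a standard error of 0.29 (adjusted p = 0.493 by edgeR), and the replicates of shIGF2BP3 differed by 0.61. It was therefore not called, although it was with the replicate number as a block and with limma on FPKM values after a filter on low FPKM, but not without that filter. The neighbouring gene INTS8 shares 1977 bases with CCNE2 on the opposite strand and moved the other way, from 74.2 and 78.9 CPM to 106 and 125 CPM. In all, 12 of the 46 genes overlap another gene on the opposite strand, and the strand setting of the counting is not given in the sources used here, so reads of such pairs cannot be told apart.

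The genes of G2 and mitosis held 2 members with p of at most 0.05, both higher. TTK, the kinase also known as MPS1 that starts the spindle checkpoint (ENSG00000112742; chromosome 6 from 80003887 to 80042527), was read at 110 CPM in both shCtrl libraries and at 132 and 156 CPM in shIGF2BP3. Its log2 fold change was 0.39 (standard error 0.14, adjusted p = 0.472 by edgeR), a fold of 1.31. CDK1, the kinase that drives entry into mitosis (ENSG00000170312; chromosome 10 from 60778331 to 60794852), was at 120 and 107 CPM in shCtrl and 138 and 158 CPM in shIGF2BP3. Its groups did not overlap, and its log2 fold change was 0.38 (standard error 0.15, adjusted p = 0.472). Neither reached a fold of 1.5. Both kept p of at most 0.05 with DESeq2 and with the other low-count filters. Neither kept it with library totals, where TTK was at 0.305 and CDK1 at 0.294, or with limma on FPKM values. The limma values were 0.275 to 0.282 for TTK and 0.308 to 0.313 for CDK1. CDK1 also lost it with the replicate number as a block. Without shIGF2BP3 replicate 2 the log2 fold changes were 0.26 for TTK and 0.28 for CDK1.

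The cyclins that work with CDK1 were nearer 0. CCNA2, cyclin A2, was at 156 and 140 CPM against 149 and 173 CPM with overlap (log2 fold change 0.12, standard error 0.15, adjusted p = 0.756). Its neighbour EXOSC9, which shares 578 bases on the other strand, had a log2 fold change of 0.52. CCNB1, cyclin B1, was at 450 and 433 CPM in shCtrl and 430 and 418 CPM in shIGF2BP3 (log2 fold change -0.06, standard error 0.12, adjusted p = 0.871), and CCNB2 differed by 0.07. CDC25C, the phosphatase that activates CDK1, differed by -0.09 with overlap between groups.

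Chromosome and kinetochore genes were the most scattered of the mitotic genes. CENPF, a kinetochore protein that accumulates in G2, was read at 183 and 186 CPM in shCtrl and 218 and 244 CPM in shIGF2BP3, with a log2 fold change of 0.32 (standard error 0.13, adjusted p = 0.477). The proliferation marker MKI67 was at 370 and 375 CPM against 419 and 465 CPM, also without overlap (log2 fold change 0.25, standard error 0.13, adjusted p = 0.52). BIRC5, which encodes survivin of the chromosomal passenger complex, was at 50.3 and 72.3 CPM in shCtrl and 32.4 and 51.9 CPM in shIGF2BP3. Its groups overlapped and its replicates differed by up to 0.68, so that the log2 fold change of -0.54 (standard error 0.29, adjusted p = 0.521) was within that spread. It ran from -0.92 without shIGF2BP3 replicate 2 to -0.23. TOP2A, the topoisomerase that untangles sister chromatids, was at 204 and 165 CPM against 191 and 176 CPM (log2 fold change -0.01, standard error 0.16, adjusted p = 0.992), and CENPE differed by 0.22 with overlap.

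UBE2C and CDC20 had the highest shCtrl FPKM of the 22 G2/M genes, at 223 and 316. UBE2C, the ubiquitin-conjugating enzyme of the anaphase promoting complex, was read at 182 and 231 CPM in shCtrl and 250 and 301 CPM in shIGF2BP3. Both shIGF2BP3 libraries were higher, with a log2 fold change of 0.42 (standard error 0.18, adjusted p = 0.48). Without shCtrl replicate 2 it was 0.60 and UBE2C was called higher, while it was 0.26 without shCtrl replicate 1 and 0.28 without shIGF2BP3 replicate 2. Its partner CDC20 lay on the other side of 0 at -0.12, with both shIGF2BP3 libraries just below both controls.

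The mitotic kinases other than TTK and CDK1 differed little. PLK1, which acts on centrosomes and spindle, was at 224 and 236 CPM in shCtrl and 219 and 200 CPM in shIGF2BP3 (log2 fold change -0.14, standard error 0.13, adjusted p = 0.698). AURKA, the centrosomal Aurora kinase, was at 208 and 199 CPM against 197 and 204 CPM, with overlap (log2 fold change -0.02, standard error 0.12, adjusted p = 0.966). Its chromosomal relative AURKB differed by 0.09. The spindle protein TPX2, which activates AURKA, differed by -0.22 without overlap, and the kinesins KIF11 and KIF20A by 0.17 and 0.03 with overlap. Of the other checkpoint genes, BUB1 and BUB1B differed by 0.03 and -0.02, and MAD2L1, singled out after its values were seen, by 0.47 with a standard error of 0.29. MAD2L1 was at 52.4 and 38.0 CPM in shCtrl and 78.2 and 47.2 CPM in shIGF2BP3, and a single library at 78.2 CPM stood apart from the other 3.

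**Figure D4:**
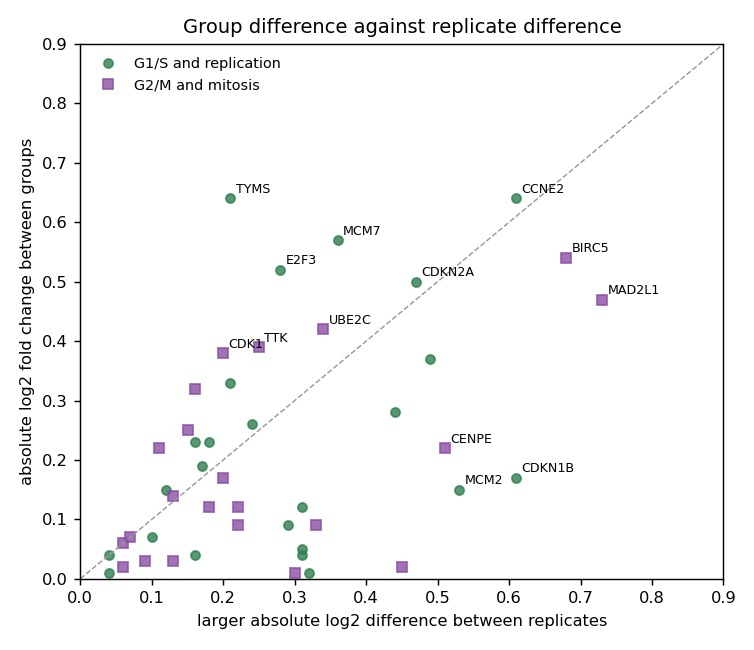
Absolute log2 fold change between groups (y axis) against the larger absolute log2 difference between replicates of a group (x axis) for the 24 G1/S and 22 G2/M genes, with the line of equality dashed. The group difference exceeds the replicate difference in 18 of 46 genes, among them TYMS, MCM7 and E2F3, while BIRC5, MAD2L1 and CDKN1B lie under the line. The share over all genes was not computed.

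The spread between replicates set how much could be seen. The difference between groups was larger than the larger difference between replicates in 11 of the 24 G1/S genes and 7 of the 22 G2/M genes. This share was not computed over all genes, so the counts cannot be read as particular to these genes. Between the shCtrl libraries the median absolute log2 difference was 0.22 for the G1/S genes and 0.12 between the shIGF2BP3 libraries, with 0.18 between groups. For the G2/M genes these medians were 0.16, 0.14 and 0.13. Standard errors of the 46 genes ran from 0.12 to 0.29, so that a fold of 1.5 lay several standard errors from 0 for most but not for CCNE2, BIRC5 or MAD2L1.

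Summed over the genes of each phase, the G1/S genes took 4188 and 4073 CPM in shCtrl and 3770 and 3432 CPM in shIGF2BP3. Both shIGF2BP3 libraries were lower. MCM7 made up much of this gap, and without it the sums were 3263 and 3128 CPM against 3061 and 2880 CPM, still without overlap. On the FPKM scale the sums without MCM7 overlapped, at 1265 and 1146 against 1167 and 976. The G2/M genes summed to 4470 and 4478 CPM in shCtrl and 4514 and 4711 CPM in shIGF2BP3, but on the FPKM scale to 1741 and 1611 against 1671 and 1610. The ratio of G1/S to G2/M CPM was 0.937 and 0.909 in shCtrl and 0.835 and 0.728 in shIGF2BP3. The lowest ratio was in shIGF2BP3 replicate 2, the library with the highest mitochondrial share (17.02%) and the lowest total count. With mitochondrially encoded genes left out, the medians of both phases were -0.07 and 0.05 and TYMS alone was called. That fit cannot bear on the ratio, which is formed within each library. These sums are dominated by the most abundant genes and carry no test.

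In some of these genes, the transcripts behind the gene sums differed more than the sums did. Of the 6 MCM7 transcripts, 3 held at least 10% of its counts in some library. ENST00000303887 held 96.5% of the MCM7 counts in both shCtrl libraries and 65.8% and 69.3% in shIGF2BP3. ENST00000621318 held 0.742% and 0.835% in shCtrl and 21.7% and 12.3% in shIGF2BP3. ENST00000354230 held 0.328% and 0.25% in shCtrl and 9.77% and 15.7% in shIGF2BP3, and it begins at position 100100780 of chromosome 7 where the others begin at 100101940. None of the 3 shares overlapped between groups.

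CDKN2A and E2F3 are both known to use separate start sites for different proteins. At CDKN2A, the 4 transcripts that begin between 21994411 and 21995301, the far end of the locus, held 91.9% and 81.3% of its counts in shCtrl, against 96.6% and 91.9% in shIGF2BP3. The 4 that begin between 21974827 and 21975098 held 5.14% and 16.7% in shCtrl and 1.8% and 6.7% in shIGF2BP3, so their shares overlapped between groups. In estimated counts, these 4 had 188 and 761 in shCtrl and 97 and 316 in shIGF2BP3. The far-end set had 3361 and 3703 in shCtrl and 5204 and 4335 in shIGF2BP3. The higher CDKN2A total thus came from the far-end set, and the protein made from each set was not assigned here. Within the far-end set, ENST00000579755 held 57.7% and 57.6% in shCtrl and 21.2% and 29.8% in shIGF2BP3. ENST00000498628 held 2.79% and 19.4% in shCtrl and 35.0% and 56.0% in shIGF2BP3. At E2F3, the transcript that begins at 20403679 had 157 and 806 counts in shCtrl and 2 and 0 counts in shIGF2BP3. Its share of the E2F3 counts was 11.7% and 54.9% against 0.112% and 0.0%, and the shCtrl libraries were far apart.

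RRM1, KIF20A and MCM3 had gene-level log2 fold changes near 0 over transcripts whose shares differed widely. RRM1 transcript ENST00000300738 held 23.5% and 22.2% of RRM1 counts in shCtrl, against 99.9% and 99.8% in shIGF2BP3, while the rest of the shCtrl counts went to different transcripts in each library. KIF20A transcript ENST00000394894 held 15.8% and 16.5% in shCtrl and 79.6% and 51.5% in shIGF2BP3, and its start lies within 1000 bases of that of ENST00000508792, the main transcript in shCtrl. MCM3 transcript ENST00000229854 held 0.82% and 2.88% in shCtrl and 23.8% and 97.3% in shIGF2BP3, so the shIGF2BP3 libraries were far apart. By contrast TYMS kept 1 transcript, ENST00000323274, at 94.9% to 96.6% of its counts in every library.

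**Figure D5:**
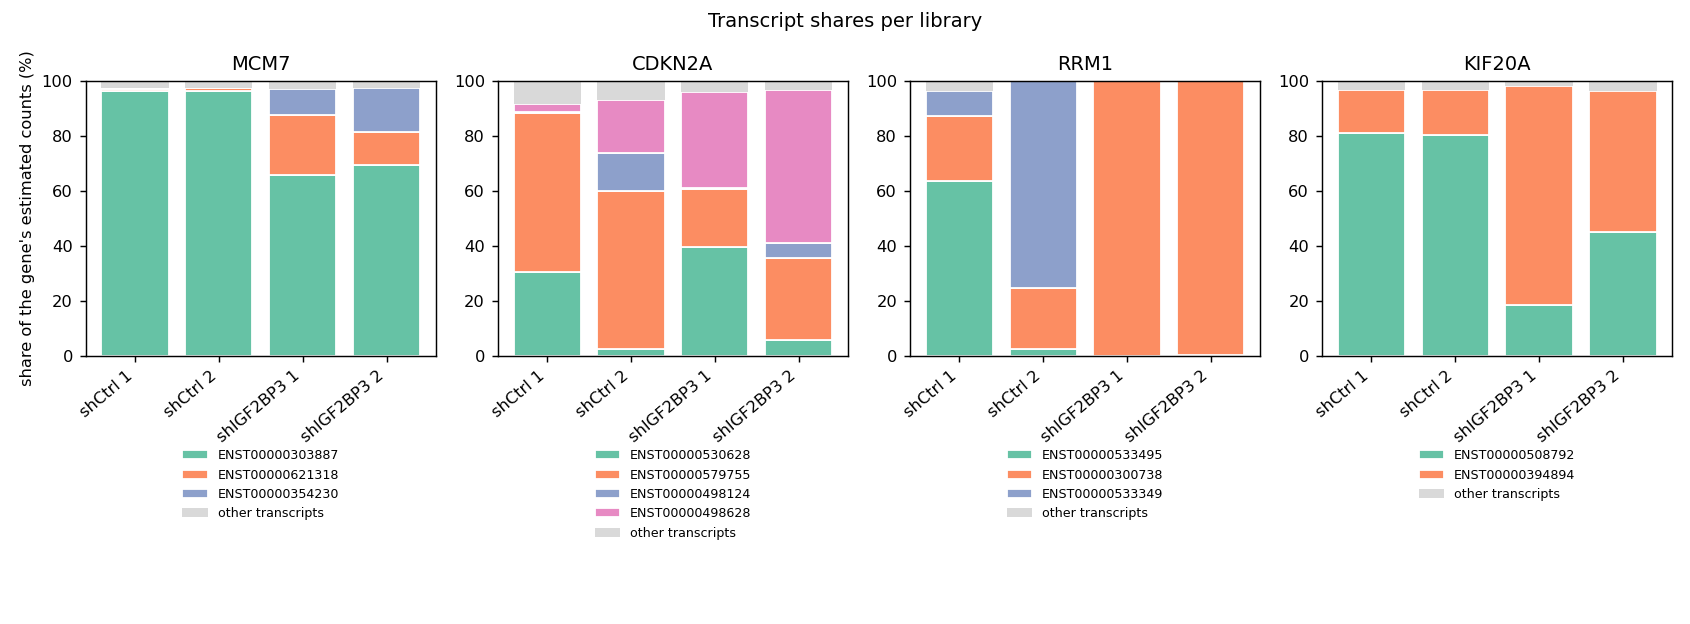
Share of the gene's estimated counts (y axis, percent) assigned to each transcript in the 4 libraries, for MCM7, CDKN2A, RRM1 and KIF20A; transcripts under 10% in every library are pooled in grey. The main MCM7 transcript drops from 96.5% in both shCtrl libraries to 65.8% and 69.3%, and RRM1 and CDKN2A also differ between the shCtrl replicates.

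These shifts were then counted over all genes. A gene was counted when a transcript's share differed by at least 20 percentage points between the closest libraries of opposite groups, among genes with 2 or more transcripts and at least 100 counts in every library. This held for 5 of 42 cell cycle genes (11.9%), namely MCM3, MCM7, RRM1, CDKN2A and KIF20A, against 5.71% of 9366 genes. The measure was chosen after the data were seen and carries no test. Transcript counts are estimates by the authors' counting tool, and they also swung within groups. At BIRC5, ENST00000374948 held 0.952% and 62.7% in the 2 shCtrl libraries, and at MCM5, ENST00000382011 held 88.6% and 35.2% in the 2 shIGF2BP3 libraries.

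Other genes of the same pathways were tested in 4 further lists. Of 38 further genes of replication origins and forks, edgeR called 0 in either direction, and 3 (7.89%, against 10.5% of all genes) had p of at most 0.05, all lower. These were the polymerase delta subunits POLD1 (log2 fold change -0.45) and POLD2 (-0.50) and the clamp loader subunit RFC5 (-0.50). The 38 genes had a median of -0.10, with 24 below 0. Of 26 further regulators of G1, 1 (3.85%, against 2.78% of all genes) was called lower, the DREAM complex subunit LIN54. LIN54 was read at 16.7 and 14.2 CPM in shCtrl and 8.58 and 2.94 CPM in shIGF2BP3 (log2 fold change -1.41, standard error 0.49, adjusted p = 0.472 by edgeR). Replicate 2 minus replicate 1 of LIN54 in shIGF2BP3 was -1.54 on the log2 scale, larger in size than the difference between groups. The CDK inhibitor CDKN1A, which encodes p21, was at 27.8 and 28.9 CPM against 20.3 and 19.7 CPM (log2 fold change -0.50, adjusted p = 0.472), short of the fold. The median of the 26 genes was -0.05, and 7.69% of them had p of at most 0.05.

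Of 45 further spindle, kinetochore and cytokinesis genes, 3 (6.67%, against 2.54% of all genes) were called higher and 0 lower. SPC24 and NUF2 both belong to the NDC80 complex, which holds microtubules at the kinetochore. SPC24 was read at 34.0 and 32.4 CPM in shCtrl and 63.5 and 68.0 CPM in shIGF2BP3, a rise to 198% of control (log2 fold change 0.99, standard error 0.13, adjusted p = 0.164 by edgeR). Mean SPC24 FPKM was 16.6 in shCtrl and 26.8 in shIGF2BP3. NUF2 was at 65.4 and 75.1 CPM against 97.0 and 117 CPM (log2 fold change 0.61, adjusted p = 0.472). WEE1, the kinase that restrains CDK1, was at 13.1 and 10.2 CPM against 18.5 and 19.0 CPM (log2 fold change 0.69, adjusted p = 0.472). At p of at most 0.05 and any fold, edgeR picked out 9 of the 45, against 10.5% of all genes. The 5 higher ones were these 3, SPC25 of the same NDC80 complex (0.42) and the condensin subunit NCAPG (0.53), and the 4 lower ones were ESPL1, CDCA8, KIF15 and CDC25B. SPC24, NUF2, SPC25 and NCAPG each overlap 1 gene on the opposite strand and WEE1 overlaps 0. Reads of such pairs cannot be told apart here. The median of the 45 genes was -0.06, with 25 below 0, on the other side of 0 from the median of the 22 G2/M genes. Of 17 further genes of the anaphase promoting complex and its regulators, 0 were called and the median was 0.01, with ANAPC4 and CDC16 higher and FZR1 lower at p of at most 0.05 (17.6%).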

How the data were processed

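RNA-seq of shCtrl (n = 2) and shIGF2BP3 (n = 2) H1299 cells was used. For each transcript the authors deposited an estimated count, whole and not normalized, and FPKM values scaled by length and depth. The submitters' processing notes name CASAVA, FastQC, Trimmomatic, HISAT2, bedtools and GRCh38; the counting tool, annotation and strand setting are not given in the sources used here.

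Counts of 95139 transcripts were summed to 20263 genes. A symbol was assigned where an Ensembl gene and a RefSeq gene overlapped each other best, over at least 0.5 of their joint span and with a lead of 0.2. After the data were seen, sole mutual overlaps were added, which named 455 more genes, MCM5 and RRM2 among them. In all, 18677 genes were named. CPM values are TMM-scaled.

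Genes kept by filterByExpr (minimum count 10, minimum total 15; 13379 genes) entered edgeR 4.0.16 (R 4.3.3), by glmQLFit and glmQLFTest with Benjamini-Hochberg adjustment, after the script was tested on simulated data. The common biological coefficient of variation was 22.8%. How far depth and the number of libraries each limited the precision was not tested. Replicates of each group differed by more than sampling noise (chi-square per degree of freedom 69.5 and 68.3).

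The members and lists were chosen with earlier results of these data known. Full statistics were given for IGF2BP3, called members, the 5 members of each phase with the smallest p, and 18 genes named beforehand; of the other lists, called genes and, beyond that rule, genes with p of at most 0.05 were named after their values were seen. Alternatives were RLE factors, library totals, other low-count filters, DESeq2 1.42.0, limma 3.58.1 on log2(FPKM + 1) and log2(FPKM + 0.1), a replicate block, other call rules, leaving out mitochondrially encoded genes and leaving out each library. The labels number the replicates 1 and 2, while the shIGF2BP3 columns carry the numbers 2 and 3. A planned search for promoter motifs was not run, because no promoter sequences were used here.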

Additional observations from a re-analysis of the deposited data

How the results depend on the processing

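The log2 fold changes of 25 named genes were recomputed under 14 alternatives. Of the recomputed values, 314 kept their direction and call status, 22 gained a call, 1 lost it and 13 changed sign. A value could keep its call status while crossing the fold or the p threshold alone. RLE factors, DESeq2, both low-count filters and the fit without mitochondrially encoded genes left the calls and medians of both phases as reported.

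With library totals the G1/S genes had 2 lower calls (TYMS and MCM7) and a median of -0.147, and the G2/M genes had 1 lower call (BIRC5) and a median of -0.028. The median of all genes was then -0.081, and 195 genes were higher and 485 lower, against 340 and 372. With limma on log2(FPKM + 1) there were 3 lower G1/S calls (TYMS, MCM7 and CCNE2), 1 higher (CDKN2A) and 1 lower G2/M call (BIRC5), with medians of -0.216 and -0.008. With limma on log2(FPKM + 0.1) there were again 3, 1 and 1, with medians of -0.219 and -0.008. Without the FPKM filter there were 2, 1 and 1, with medians of -0.216 and -0.008. The limma medians of all genes were -0.070, -0.081 and -0.026, and limma called 339, 455 and 261 genes lower and 127, 175 and 106 higher. At an adjusted p under 0.05 edgeR gave 0 calls in both phases, although 6 of the 46 genes had p of 0.05 or less before adjustment, while DESeq2 gave 1 (TYMS). Asking only for no overlap gave 9 lower and 4 higher G1/S genes and 4 lower and 6 higher G2/M genes.

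With each library left out in turn, the lone library was assumed to vary like the other group. The G1/S median ran from -0.101 (without shIGF2BP3 replicate 1) to -0.002 (without shCtrl replicate 1), its lower calls from 0 to 3 and its higher calls from 0 to 2. Without shIGF2BP3 replicate 1, 874 of all genes were called lower and 671 higher, against 372 and 340. The other 3 fits called 313 to 378 genes lower and 210 to 452 higher. The lower and the higher G2/M calls each ran from 0 to 1. TYMS lost its call without shIGF2BP3 replicate 2. CCNE2 and MCM7 gained lower calls, and E2F3 a higher call, without shIGF2BP3 replicate 1. CDKN2A, E2F3 and UBE2C gained higher calls without shCtrl replicate 2, and BIRC5 (lower) and MAD2L1 (higher) gained calls without shIGF2BP3 replicate 2. Sign changes were in genes near 0 or with wide replicate spread: CCNE1 ran from -0.043 to 0.126, CDK4 from -0.025 to 0.014, CDKN1B from -0.097 to 0.515, MCM2 from -0.393 to 0.141, PCNA from -0.278 to 0.030, AURKA from -0.048 to 0.016 and TOP2A from -0.150 to 0.158. CCNE1 was also -0.050 with library totals.

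With the replicate block, the lower G1/S calls were 2 (TYMS and CCNE2) and TOP2A was at 0.000, and no other call of the 2 phases changed. The block called 418 of all genes lower and 354 higher. Same-numbered libraries deviated from their group means with a correlation of 0.044 over the genes tested, which does not settle whether they are pairs. Replicate 2 minus replicate 1 had the same sign in shCtrl and shIGF2BP3 for CCNE2 (-0.51 and -0.61) and BIRC5 (0.52 and 0.68). It had opposite signs for CENPE (0.51 and -0.30) and BUB1B (-0.45 and 0.32). Where a value moved, the cause was not tested. With 2 libraries per group, the differences of CCNE2 (1.55-fold), BIRC5 and MAD2L1, each with a standard error of 0.29, were not resolved from replicate spread.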
